A study of Mus musculus with 6 samples.

Results

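Wfdc17 and a small group of protease inhibitor genes, Slpi, Cst3 and Cstb, were followed in RNA sequencing libraries labelled heart from mice carrying B16F10 tumours. B16F10 is a transplantable mouse melanoma line, and its cells had been placed under the skin of the flank. All mice were female C57BL/6 and labelled wild type. In the 3 rMANF samples, mice had received recombinant MANF (mesencephalic astrocyte-derived neurotrophic factor, a protein of the endoplasmic reticulum that is also secreted) at 2 µg/kg into the abdomen every day. In the 3 vehicle samples they had received phosphate-buffered saline. Injections began at a mean tumour volume of about 60 mm3, with 8 mice randomised to each group, and the labels do not give the age of the mice. The column names that the labels give for the vehicle samples begin with IgG. The 4 genes were found by symbol among 23494 genes of the deposited table, and they were chosen by the measured TPM of Wfdc17, which lay lower with rMANF. The difference of Wfdc17 between the groups is therefore given as a description, without a test.

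Small secreted inhibitors hold proteases in check outside the cell, and cytosolic ones do so where a lysosome leaks. WFDC proteins carry the whey acidic protein domain, a compact fold tied by disulfide bonds. WFDC17, also called AMWAP, is such a protein made by activated mouse macrophages and microglia, and SLPI, the secretory leukocyte protease inhibitor, carries the same kind of domain and blocks elastase and cathepsin G of neutrophils. Cystatins block lysosomal cysteine proteases of the papain family: cystatin C (Cst3) is secreted by most cells, and cystatin B (Cstb) stays in the cytosol.

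The tissue label did not match the RNA. The 14 cardiomyocyte markers found in the table (of 17 listed) together held 10.8 to 14.3 TPM in the rMANF libraries and 11.0 to 74.0 TPM in the vehicle libraries. TPM is a transcript's share of its library, corrected for length. Of these, Actc1, Nppa and Pln stayed under 1 TPM in all 6 libraries, while Tnnt2 held 4.86 to 11.5 TPM and Tnni3 1.12 to 6.11 TPM. Myl2, Tnnc1 and Mb were highest in vehicle replicate 2, at 14.9, 13.0 and 23.5 TPM. All 15 skeletal muscle markers lay lower with rMANF (median log2 difference −2.39), 11 of them without overlap, where 9.02% of all tested genes lay lower without overlap. Most of the 15, and most of the 11 without overlap, averaged under 1 TPM with rMANF. They reached the mean of 1 TPM needed for testing only through vehicle libraries, so their lower mean follows from that filter. Among these were Myh1 (0.148 TPM with rMANF and 5.17 TPM with vehicle) and Pvalb (0.117 TPM with rMANF and 28.5 TPM with vehicle). Leaving out the widely expressed Eno3, the markers summed to 22.2, 8.81 and 7.40 TPM in rMANF replicates 1, 2 and 3, against 127, 1374 and 30.9 TPM in vehicle replicates 1, 2 and 3. Of the 3 melanocyte genes with rows, Pmel and Sox10 stayed at or below 0.341 TPM and Mitf, also used by other cells, held 7.36 to 10.2 TPM with rMANF and 7.93 to 12.2 TPM with vehicle. On the first 2 principal components (38.5% and 25.1% of the variance) the rMANF libraries lay together and vehicle replicates 1 and 2 stood apart in different directions. The samples are called rMANF and vehicle libraries below, as labelled. Read numbers cannot be recovered from TPM, so sequencing depth is not known and the errors are those between samples. In such bulk RNA, fewer cells of a type and less RNA per cell cannot be told apart.

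The start of Wfdc17 is shown first, since this gene carries the contrast, and beside it that of Cst3, whose groups overlapped. Both are the 250 bases before the annotated start from RefSeq on GRCm38.p6 (the assembly named mm10), given along the gene's own strand. Wfdc17 is a protein-coding gene on chromosome 11 (83704056 to 83706269, plus strand), and its window is chr11:83703806-83704055. Cst3 is a protein-coding gene on chromosome 2 (148871722 to 148875512, minus strand), and its window is chr2:148875513-148875762. Capitals mark a CCAAT match in Wfdc17 and a GGGCGG match in Cst3.
Wfdc17: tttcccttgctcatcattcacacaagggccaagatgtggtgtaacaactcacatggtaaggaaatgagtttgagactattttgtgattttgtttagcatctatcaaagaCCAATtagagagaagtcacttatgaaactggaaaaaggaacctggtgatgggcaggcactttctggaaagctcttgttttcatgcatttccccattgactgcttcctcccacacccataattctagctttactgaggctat
Cst3: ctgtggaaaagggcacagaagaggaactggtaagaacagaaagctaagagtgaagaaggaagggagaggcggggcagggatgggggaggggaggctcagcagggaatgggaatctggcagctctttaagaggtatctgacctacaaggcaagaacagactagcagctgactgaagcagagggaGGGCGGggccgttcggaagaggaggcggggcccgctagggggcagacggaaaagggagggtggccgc

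The window of Wfdc17 was 41.2% G and C, and 14.1% of 32851 such windows held less. That of Cst3 was 59.6% G and C, and 71.1% of windows held less. Short motifs were searched on both strands of all windows. CCAAT was found in Wfdc17 beginning 141 bases before the start and occurred in 33.8% of all windows. GAGGAA, found in 23.3% of windows, lay 39 bases before the start of Wfdc17 on the opposite strand and 230 bases before that of Cst3. GGGCGG, found in 32.7% of windows, lay 67 bases before the start of Cst3. No match overlapped another. Neither window held TGANTCA, present in 6.75% of windows, or TATAAA, present in 12.4%. In Wfdc17 a TATAAA match lay across the annotated start itself, with 3 bases before it and 3 from it on. These matches describe the letters and are not binding sites.

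Wfdc17 was an abundant transcript. It measured 197, 211 and 181 TPM in rMANF replicates 1, 2 and 3, against 406, 321 and 354 TPM in vehicle replicates 1, 2 and 3. Every rMANF library lay below every vehicle library, and the lowest vehicle value was 1.52 times the highest rMANF value. The group averages were 196 ± 14.7 TPM with rMANF and 360 ± 42.7 TPM with vehicle (SD, n = 3 each), a ratio of 0.545. On log2(TPM + 1) the difference was −0.87 ± 0.11 (SE), and 215 of 12865 tested genes had a lower one. Over 17 alternative settings it ran from −0.95 to −0.78, the smaller end being the value when vehicle replicate 1, highest in Wfdc17, was left out. Within groups the SD of Wfdc17 was 0.142 on the log2 scale, near the median of all tested genes, 0.158. By level it ranked between 607 and 679 of all genes with rMANF and between 308 and 377 with vehicle.

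Slpi was the least abundant of the inhibitors and the most variable. It measured 28.0, 23.6 and 26.0 TPM in rMANF replicates 1, 2 and 3, against 19.9, 51.5 and 28.3 TPM in vehicle replicates 1, 2 and 3. The rMANF libraries all fell inside the vehicle range. The log2 difference was −0.25 ± 0.29 (SE), with a 95% interval from −0.92 to 0.43, and limma's Benjamini-Hochberg adjusted p = 0.679 missed the threshold of 0.05. Its sign depended on vehicle replicate 2: without that library the difference of Slpi was 0.12, and without vehicle replicate 1 it was −0.55. The vehicle library highest in Slpi was the one with the most skeletal muscle RNA. The library lowest in Slpi, vehicle replicate 1, had the highest sum of neutrophil markers, 214 TPM where the other 5 libraries held 20.3 to 44.5 TPM. Most of that sum came from S100a8 and S100a9, at 67.0 and 120 TPM. Ly6g, Cxcr2, Retnlg and Mmp8 were also highest there. Csf3r, Ltf, Mmp9 and Padi4 were highest in other libraries, and Padi4 was lowest in vehicle replicate 1. The part of muscle or neutrophil content in the Slpi values was not tested. Within groups the SD of Slpi was 0.483 on the log2 scale, larger than that of 94.6% of tested genes.

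Cst3 varied little across the libraries. It measured 730, 723 and 635 TPM in rMANF replicates 1, 2 and 3, against 678, 793 and 738 TPM in vehicle replicates 1, 2 and 3. The ranges overlapped, and its rank by level stayed between 170 and 189 of all genes. The log2 difference was −0.08 ± 0.09 (SE; 95% interval −0.30 to 0.13; limma, Benjamini-Hochberg adjusted p = 0.668), and its sign turned under quantile normalization (0.02). 

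Cstb, the cytosolic cystatin, was the most abundant of the inhibitors. It measured 823, 799 and 738 TPM in rMANF replicates 1, 2 and 3, against 713, 1065 and 917 TPM in vehicle replicates 1, 2 and 3. The lowest library of all was vehicle replicate 1 and the highest vehicle replicate 2, so the rMANF libraries lay between them. The log2 difference was −0.17 ± 0.14 (SE; 95% interval −0.50 to 0.15), above the threshold in limma (Benjamini-Hochberg adjusted p = 0.531). Without vehicle replicate 1 it was −0.33, and without vehicle replicate 2 it was −0.04. Limma called 0 of the 12865 tested genes (0.0%) at an adjusted p of 0.05, with 2642 at an unadjusted p under 0.05. A miss of that threshold by these inhibitors does not show that their levels were equal.

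**Figure D1:**
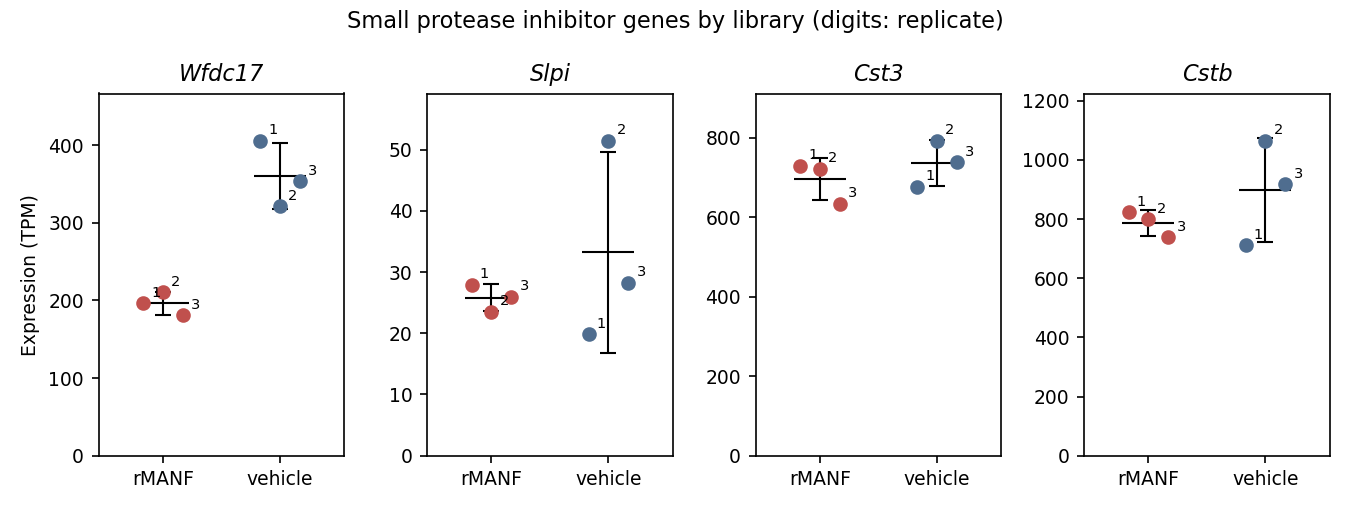
Expression of Wfdc17, Slpi, Cst3 and Cstb in TPM (linear axes from 0) for each rMANF and vehicle library. Points are libraries with their replicate digit, the long dash is the group mean and the bar its SD (n = 3). The groups are separate for Wfdc17, 181 to 211 TPM with rMANF and 321 to 406 TPM with vehicle, and overlap for the other genes.

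TPM corrects for length, so levels can be set against each other. Cstb exceeded Cst3 in all 6 libraries, by 1.11 to 1.16 times with rMANF and by 1.05 to 1.34 times with vehicle, although their group ranges overlapped in the vehicle libraries. Both lay above Wfdc17, and Wfdc17 lay above Slpi, in each library without overlap. The share of Wfdc17 in the summed TPM of the 4 inhibitors was 11.1%, 12.0% and 11.5% in rMANF replicates 1, 2 and 3, against 22.4%, 14.4% and 17.4% in vehicle replicates 1, 2 and 3. No stretch of 31 bases of the 4 genes' transcripts occurred in a transcript of another gene of GENCODE M21. The loci of Wfdc17, Cst3 and Cstb (chromosome 10, 78425670 to 78427622) overlapped no other gene there. Slpi (chromosome 2, 164354070 to 164356507) held 1, a microRNA gene.

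Wfdc17 is known from macrophages, and genes of these cells lay lower with rMANF too. All 16 macrophage markers lay lower with rMANF (median log2 difference −0.49), 9 of them without overlap. Over all tested genes 9.02% lay lower without overlap and 18.9% lay higher without overlap. These shares were 13.2% and 16.6% under median-of-ratios scaling, and 12.3% and 17.6% under quantile normalization. Summed, these markers came to 2373, 2200 and 1721 TPM in rMANF replicates 1, 2 and 3, against 2769, 3284 and 3279 TPM in vehicle replicates 1, 2 and 3. Aif1, an actin-binding protein of macrophages, differed by −0.85, within the SE of Wfdc17, which was itself picked for its difference.

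Set against single macrophage genes within a library, the picture depended on the gene. Relative to Lyz2, the lysozyme of myeloid cells, Wfdc17 stood at 0.270, 0.403 and 0.419 in rMANF replicates 1, 2 and 3, against 0.427, 0.324 and 0.363 in vehicle replicates 1, 2 and 3, and the groups overlapped. They overlapped too relative to Adgre1, the F4/80 antigen (5.19 to 6.27 with rMANF and 5.68 to 8.80 with vehicle), and to the sum of the 16 markers (0.0830 to 0.105 with rMANF and 0.0979 to 0.147 with vehicle). Relative to Csf1r, the receptor that keeps macrophages alive, the ratio was 7.28 to 8.87 with rMANF and 10.7 to 15.7 with vehicle, without overlap. Relative to Cd68, a lysosomal protein, it was 1.60 to 1.84 with rMANF and 1.95 to 3.03 with vehicle, and relative to the complement gene C1qa 0.408 to 0.490 with rMANF and 0.497 to 0.907 with vehicle, again without overlap. Vehicle replicate 1 had the highest ratio in each of these. The part of macrophage content in the Wfdc17 difference was not tested.

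**Figure D2:**
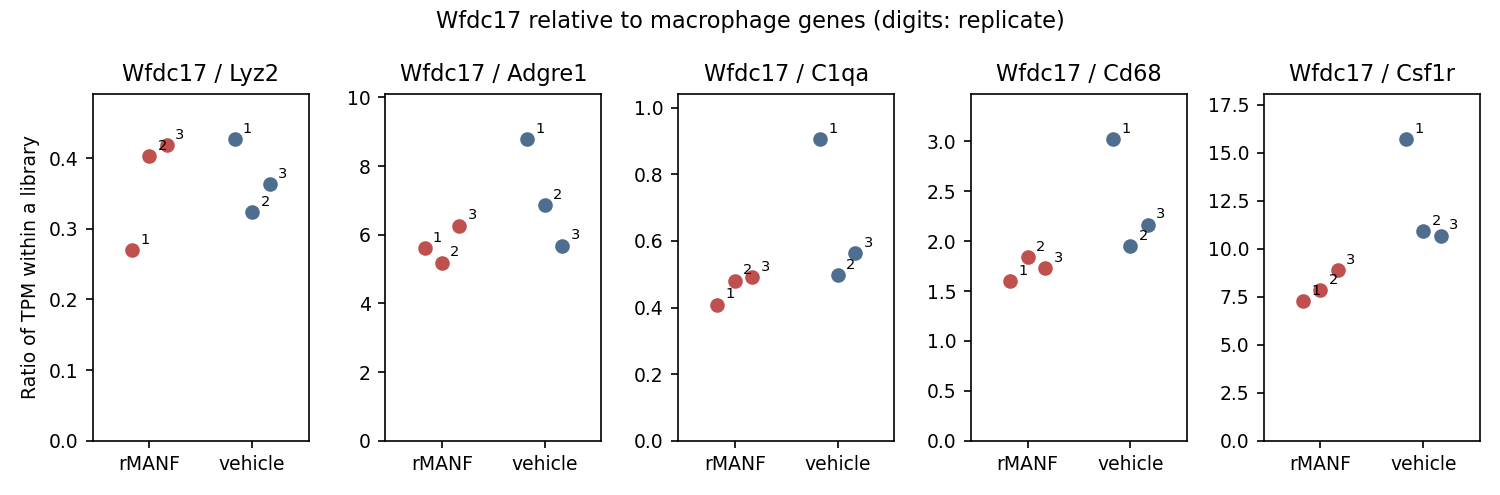
Ratio of Wfdc17 TPM to that of 5 macrophage genes within each library (linear axes from 0), with rMANF left of vehicle and replicate digits beside the points. The groups overlap for Lyz2 and Adgre1 and are separate for C1qa, Cd68 and Csf1r, with vehicle replicate 1 highest in each panel.

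Over the 6 libraries the genes closest to Wfdc17 in profile were Cd69, Fcer1g, Xist, Ccdc152, Arsb and Serpina3n. Closeness was the root mean square distance between log2(TPM + 1) profiles, each centred on its own mean, and 11258 named genes were compared. The distances were 0.105 for Cd69, 0.109 for Fcer1g, 0.121 for Xist, 0.121 for Ccdc152, 0.125 for Arsb and 0.137 for Serpina3n, against a median of 0.483. Cst3, Cstb and Slpi lay at 0.427, 0.440 and 0.586 from Wfdc17. Fcer1g, the signalling chain of Fc receptors, measured 347, 333 and 263 TPM in rMANF replicates 1, 2 and 3, against 654, 559 and 516 TPM in vehicle replicates 1, 2 and 3. It matched Wfdc17 closely in ratio as well, 0.546 between group averages. Since Wfdc17 was chosen for its group difference, close profiles are those of genes with a like difference. Arsb averaged 0.873 TPM with rMANF and 1.98 TPM with vehicle. It was among the compared genes only through its vehicle values, so its lower mean follows from the filter.

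Wfdc17 lies among CC chemokine genes and next to WFDC genes on chromosome 11. Within 200 kb, 9 other genes were expressed at a mean of at least 1 TPM. Over all tested genes 9.02% lay lower without overlap and 18.9% lay higher without overlap. Of the 9, 4 lay lower with rMANF without overlap: Ccl3, Ccl4, Ccl6 and Ccl9, whose products attract leukocytes. Their log2 differences were −1.91 ± 0.22, −0.95 ± 0.13, −0.72 ± 0.20 and −0.68 ± 0.18 (SE), and that of Ccl5 was −0.22 ± 0.11. The spans of Ccl3 and Ccl4 overlap in RefSeq, and without strand their shared stretch cannot be assigned. The closest gene, Wfdc18 (83709004 to 83711360), went the other way without overlap, at 3.20, 2.15 and 2.92 TPM in rMANF replicates 1, 2 and 3, against 1.76, 1.71 and 1.78 TPM in vehicle replicates 1, 2 and 3. The outlying Taf15 and Heatr6, neither a chemokine nor an inhibitor, differed by 0.26 ± 0.10 and 0.12 ± 0.15 with overlapping groups.

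**Figure D3:**
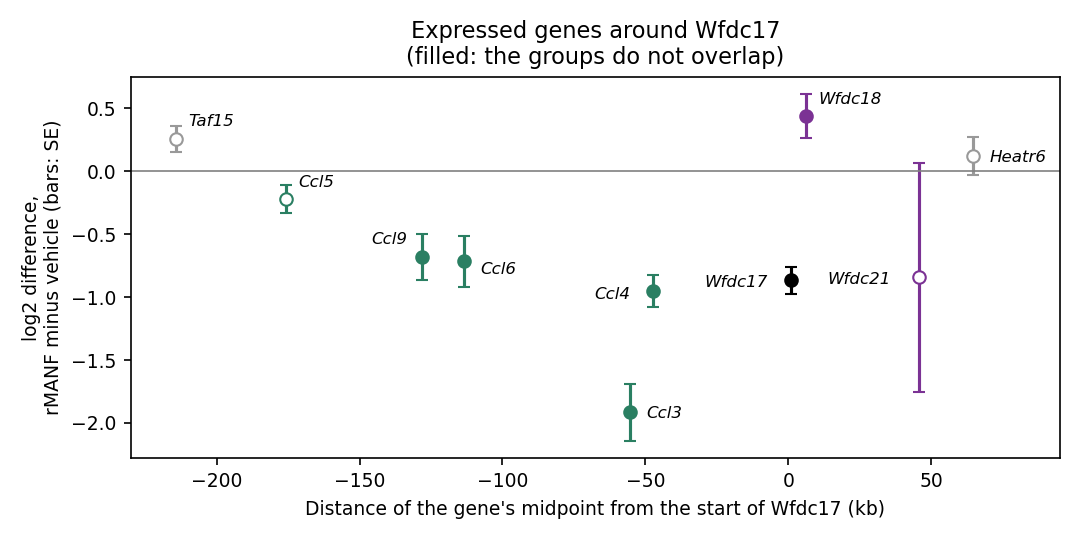
Difference in log2(TPM + 1), rMANF minus vehicle, of the 10 expressed genes within 200 kb of Wfdc17, against the distance of each gene's midpoint from the start of Wfdc17 in kb. Bars are SE and filled points mark groups without overlap; Ccl3 (−1.91) is lowest and Wfdc18 (0.44), beside Wfdc17, is highest.

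Of 21 other WFDC genes listed, 12 had rows and 4 were expressed enough to test. Limma called 0 of them, 2 lay lower and 2 higher, and the median log2 difference was −0.05, where all tested genes had 0.04. That median turned positive without vehicle replicate 1 (0.14) or vehicle replicate 3 (0.09) and with a pseudocount of 0.1 TPM (0.21), and was −0.22 without vehicle replicate 2. Wfdc2, an epithelial WFDC gene also known as HE4, was the second most abundant of the family after Wfdc17. It measured 188, 148 and 157 TPM in rMANF replicates 1, 2 and 3, against 117, 200 and 173 TPM in vehicle replicates 1, 2 and 3, with overlapping groups and a log2 difference of 0.04. Of the 9 epithelial markers with rows only the keratin gene Krt8 exceeded 1.78 TPM in any library. Wfdc21 (83746940 to 83752646) rested on single libraries, at 6.50, 1.80 and 0.616 TPM in rMANF replicates 1, 2 and 3, against 20.4, 0.576 and 4.82 TPM in vehicle replicates 1, 2 and 3. Wfdc15a, the other tested gene and 1 of the 2 that lay lower, reached 2.07 TPM at most. It averaged 0.849 TPM with rMANF and was tested only through its vehicle values, so its lower mean follows from the filter. The 8 genes that were too low to test reached 1.25 TPM.

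Of 25 other cystatin genes, 12 had rows and 4 were tested, and limma called 0. All 4 lay lower with rMANF (median −1.08), 1 of them without overlap, where 9.02% of all tested genes lay lower without overlap. Stfa2l1 and 2010005H15Rik averaged under 1 TPM with rMANF and were tested only through their vehicle values, so their lower mean follows from the filter. The untested genes went both ways. Stfa3 held 3.55 TPM in rMANF replicate 1 and 0 in every other library, and Fetub averaged 0.162 TPM with rMANF and 0.334 TPM with vehicle. The median was −0.46 without vehicle replicate 1, −0.36 with library weights, −1.96 with a pseudocount of 0.1 TPM and −0.50 with 5 TPM. Cst7, cystatin F of immune cells, averaged 2.43 ± 0.568 TPM with rMANF and 4.93 ± 1.81 TPM with vehicle (SD, n = 3 each), with rMANF replicate 1 (3.06 TPM) just above vehicle replicate 3 (3.00 TPM). Gm5483, which RefSeq names Cstdc4, measured 2.09, 0 and 1.46 TPM in rMANF replicates 1, 2 and 3, against 13.0, 3.41 and 2.87 TPM in vehicle replicates 1, 2 and 3. Stfa2l1, of the stefin A group, was listed at 0 in all rMANF libraries and in vehicle replicate 3, and at 10.5 and 0.653 TPM in vehicle replicates 1 and 2. Stefin A genes are near-identical copies, so the split of reads between them is uncertain. Gm5483, Stfa2l1 and Wfdc21 were all highest in vehicle replicate 1, where the neutrophil markers had their highest sum. That sum came mostly from S100a8 and from S100a9, at 120 TPM where the other libraries held 3.38 to 9.50 TPM. Ly6g, Cxcr2, Retnlg and Mmp8 were also highest in that library, while Csf3r, Ltf, Mmp9 and Padi4 were not. The part of neutrophil content in these values was not tested.

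In sum, the genes of the proteases that cystatins act on were more abundant than Cst3 and Cstb together. The 11 cysteine protease genes summed to 2566, 2611 and 2329 TPM in rMANF replicates 1, 2 and 3, against 2788, 3053 and 3018 TPM in vehicle replicates 1, 2 and 3, without overlap. Per TPM of Cst3 and Cstb together this was 1.65, 1.72 and 1.70 TPM of protease with rMANF, against 2.01, 1.64 and 1.82 with vehicle, and these ratios overlapped. Of the 10 tested genes limma called 0, 8 lay lower and 3 of them without overlap, with a median log2 difference of −0.17 (−0.26 without rMANF replicate 2). Over all tested genes 42.7% lay lower, and 9.02% lay lower without overlap.

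Ctss, cathepsin S of antigen-presenting cells, was among the 3 without overlap. It measured 536, 510 and 332 TPM in rMANF replicates 1, 2 and 3, against 680, 907 and 702 TPM in vehicle replicates 1, 2 and 3. Relative to its inhibitor gene Cst3 it stood at 0.735, 0.706 and 0.523 with rMANF, against 1.00, 1.14 and 0.951 with vehicle, without overlap. Ctsc, which activates granule serine proteases, averaged 75.3 ± 15.9 TPM with rMANF and 135 ± 15.1 TPM with vehicle, and Ctsb averaged 594 ± 12.9 TPM with rMANF and 663 ± 36.8 TPM with vehicle (SD, n = 3 each). The groups overlapped for Ctsz, at 493 ± 5.90 TPM with rMANF and 511 ± 57.5 TPM with vehicle. They also did for the legumain gene Lgmn, at 505 ± 28.8 TPM with rMANF and 495 ± 45.5 TPM with vehicle. Ctsk, a collagen-degrading protease, stood at 6.94 ± 2.58 TPM with rMANF and 13.2 ± 5.21 TPM with vehicle, with overlap.

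Elane and Ctsg, the neutrophil proteases that SLPI blocks, were nearly absent, at no more than 0.564 TPM in any library. Serine proteases of mast cells and lymphocytes made up most of the 13 listed, of which 7 were tested. Limma called 0, 6 lay lower and 4 of these without overlap, with a median log2 difference of −0.49. Over all tested genes 42.7% lay lower, and 9.02% lay lower without overlap. Prtn3, the 1 that lay higher (0.24), averaged 7.77 ± 0.826 TPM with rMANF and 6.52 ± 1.59 TPM with vehicle, with overlap. The mast cell chymase gene Cma1 averaged 8.81 ± 2.25 TPM with rMANF and 13.6 ± 1.49 TPM with vehicle, and the tryptase gene Tpsb2 10.1 ± 0.252 TPM with rMANF and 13.7 ± 2.23 TPM with vehicle (SD, n = 3 each). Gzmb, granzyme B of cytotoxic lymphocytes, averaged 7.22 ± 2.07 TPM with rMANF and 11.8 ± 2.67 TPM with vehicle. The low mast cell protease gene Mcpt2 reached the mean of 1 TPM needed for testing only through its vehicle values. It averaged 0.720 ± 0.181 TPM with rMANF and 2.48 ± 1.42 TPM with vehicle and did not overlap either. Mcpt4, the most abundant of the list, did (13.4 ± 2.39 TPM with rMANF and 18.2 ± 3.96 TPM with vehicle). Mast cell chymase genes are close copies and share reads in part.

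Serpins and other protease inhibitors lay lower more often than higher, with no call by limma. Of 40 genes listed 35 had rows and 19 were tested. Over all tested genes 42.7% lay lower, and 9.02% lay lower without overlap. Of the 19, 17 lay lower, 6 of them without overlap, and the median log2 difference was −0.46. It was −0.15 with library weights, −0.22 with a pseudocount of 5 TPM and −0.29 without vehicle replicate 2. Serpinb2 averaged 0.940 TPM with rMANF and 4.74 TPM with vehicle, and Serpinb8 0.853 TPM with rMANF and 1.18 TPM with vehicle. Both were tested only through their vehicle values, so their lower mean follows from the filter. Serping1, which inhibits complement C1 proteases, measured 10.6, 15.5 and 11.0 TPM in rMANF replicates 1, 2 and 3, against 27.5, 37.2 and 17.7 TPM in vehicle replicates 1, 2 and 3. Serpina3n, an inhibitor of the acute phase response, averaged 4.41 ± 0.923 TPM with rMANF and 7.78 ± 1.74 TPM with vehicle, and Serpina3g, of leukocytes, 32.5 ± 11.4 TPM with rMANF and 64.9 ± 24.8 TPM with vehicle (SD, n = 3 each). Serpina3f, Serpinb9b and Tfpi2 were the other genes without overlap. They averaged 1.96 ± 1.04, 18.3 ± 0.670 and 1.04 ± 0.256 TPM with rMANF, against 5.00 ± 2.52, 21.4 ± 1.97 and 2.05 ± 0.539 TPM with vehicle (SD, n = 3 each). Serpina3 genes are close copies, so their split of reads is uncertain. The most abundant inhibitor of the list, Serpinb6a, overlapped between groups at 461 ± 32.5 TPM with rMANF and 454 ± 31.9 TPM with vehicle (SD, n = 3 each). Of the 8 fibroblast markers with rows 6 lay lower with rMANF (median log2 difference −0.68), and Col1a2, Dcn, Lum and Mfap5 did so without overlap. Dpt lay higher without overlap (0.33), as did 18.9% of all tested genes, and Pdgfra lay higher with overlap (0.07). The 8 markers summed to 218 to 298 TPM with rMANF and 277 to 412 TPM with vehicle. Their part in the values of the inhibitors was not tested. Without vehicle replicate 2, an alternative chosen after seeing the data, the counts of genes lower without overlap were 6 for these inhibitors, 3 for cysteine proteases, 5 for serine proteases, 1 for cystatins, 1 for WFDC genes and 9 for macrophage markers, where 14.0% of all tested genes lay lower without overlap.

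**Figure D4:**
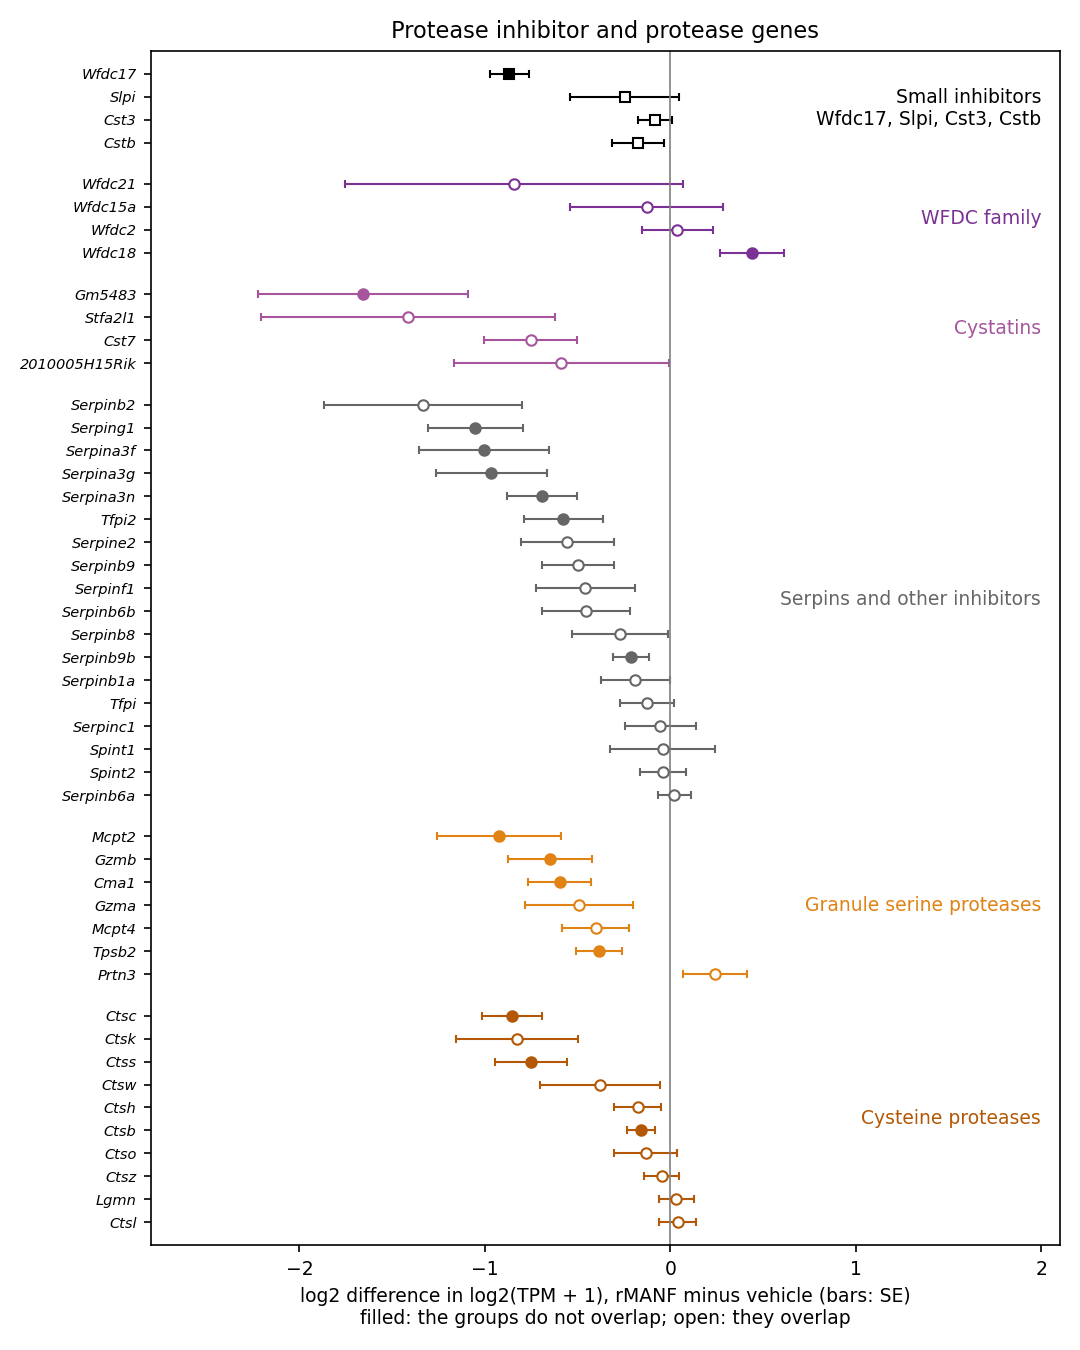
Difference in log2(TPM + 1), rMANF minus vehicle, of Wfdc17, Slpi, Cst3 and Cstb and of the tested genes of the inhibitor and protease lists, 1 of which is not reported here. Bars are SE, filled points mark groups that do not overlap and open points groups that do. Wfdc17 (−0.87) was picked for lying lower with rMANF. The others lie at −0.08 (Cst3), −0.17 (Cstb) and −0.25 (Slpi, 95% interval −0.92 to 0.43).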

How the data were processed

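The labels' protocols give QIAzol extraction of total RNA and Nextera XT libraries, a kit without strand marking. The submitters' processing notes name cutadapt, fastp, Salmon 0.14.1, HTSeq 0.11.0 and build mm10, but neither their roles nor an annotation or filter. The authors deposited log2 TPM per gene and library in 1 table. A value of −9 was read as 0 TPM. Back-transformed libraries summed to within 19.5 of the full TPM scale.

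Differences, rMANF minus vehicle, were computed on log2(TPM + 1), which understates those of low genes. The 12865 genes averaging 1 TPM or more entered limma 3.58.1 (R 4.3.3) with a variance trend and no covariate, two-sided, with Benjamini-Hochberg adjustment over all of them. The procedure was tested on simulated data. Nothing says how mice were picked for sequencing, so p-values set a group difference against the spread between these samples only.

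The 4 inhibitors, the lists and the naming rule were chosen with earlier results of these data known. The rule took, from each inhibitor or protease list, the 3 genes of highest mean, the 3 of smallest p and those without overlap, besides tested neighbours of Wfdc17 and the 6 closest profiles. Elane, Ctsg, Prtn3, Lgmn, 2010005H15Rik, Stfa3, Fetub and the single macrophage genes set against Wfdc17 fall outside it and were chosen after their values were seen. Same-numbered samples did not deviate together (correlations −0.07, 0.03 and 0.05), so the numbers were not taken as pairs. Alternatives changed the pseudocount, filter, scaling, variance model, weights, replicate block or the libraries included. Promoter sequences were matched by symbol for 3 of the 4 genes in RefSeq (GRCm38.p6). A gene that the rule would name is not reported here.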

Additional observations from a re-analysis of the deposited data

How the results depend on the processing

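The difference of Wfdc17 was negative under all 17 alternatives (−0.95 to −0.78), and −0.95 to −0.78 with each library left out. Wfdc17 was picked for lying lower, and its groups did not overlap. Leaving out a library could therefore change the size of its difference but not the sign. Slpi, Cst3 and Cstb passed limma's threshold under none (adjusted p 0.197 to 0.851, 0.332 to 0.961 and 0.0980 to 0.893). With each library left out Slpi ran from −0.55 to 0.12, Cst3 from −0.14 to −0.02 and Cstb from −0.33 to −0.04. Slpi turned positive without vehicle replicate 2 (0.12) and Cst3 under quantile normalization (0.0158); the cause was not tested. Limma called 737 genes with library weights and 3 with the replicate block, and 0 to 4 with each library left out, against 0; the 3 same-numbered pairs did not deviate together, and the block changed no call of Slpi, Cst3 or Cstb. Genes lower without overlap numbered 1347 to 1918, and higher without overlap 2644 to 4128, with each library left out, as fewer samples overlap less often. TPM holds no depth, so the precision of low genes such as Wfdc18 is unknown; its difference was 0.61 with a pseudocount of 0.1 TPM and 0.20 with 5 TPM.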
